A study of Solanum tuberosum with 10 samples.

Results

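The genes described here are 150 potato gene models, of 39021 gene models in the deposited count table, that were low in fresh explants and higher in every library taken from 24 h to 4 weeks after cutting. They were chosen by their own values. Gene models that the table pairs with a symbol (22) were set aside, and each count was divided by its library's total over gene models and multiplied by 1000000 (CPM). A gene needed at least 2 CPM in each of the 8 libraries after 0 h (15132 did), with the highest of the 8 at most 4 times the lowest (11793 of these). The score was the lowest of the 8 values over the higher of both 0 h values, after 0.5 CPM had been added to each. A score over 1.5 was reached by 813 genes, and the 150 highest scores were taken. The contrast of 0 h with the later times therefore chose these genes and is given below only as a description.

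Explants of Solanum tuberosum cultivar Desirée were segments with 1 node and 1 leaf, cut from in vitro plantlets 4 weeks old. One arm was ultrasonicated in liquid Murashige and Skoog medium and the other was the untreated control, and both were then grown on medium free of growth regulators. Samples of each arm were taken fresh (0 h), after 24 h and 48 h, and after 1 week and 4 weeks, and each of the 10 libraries is a pool of 3 biological replicates, so there is 1 library per arm and time. The labels give the tissue as stem at 0 h and 24 h and as stem with plantlet from 48 h on, in both arms alike. Whether the control explants were also immersed is not stated, so immersion and ultrasound cannot be told apart.

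A node cut from a potato shoot is freed from the growing tip that held its side bud at rest. The cut surface is sealed by wound tissue, the bud grows out and roots form at the base, so that the explant turns into a plantlet. The table gives identifiers and no description for the 150 genes, and 0 of them were found in the reference gene table, so no function is assigned to any of them here.

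Total counts ran from 122786170 to 161153911 per library. The share of ribosomal RNA features was 2.19% in the control 24 h library and 0.0333% to 0.423% elsewhere. The scaling factor of the trimmed mean of M-values (TMM), which corrects for library composition, was 0.688 in the ultrasonicated and 0.885 in the control library at 0 h, and 0.975 to 1.14 in the other libraries. Such factors raise the 0 h values relative to the later ones. With TMM-scaled CPM, 140 of the 150 genes kept a score over 1.5 and 120 (80% of the list) would have ranked among the highest 150. The lowest later value lay above both 0 h values for 150 of the 150 genes. With a lowest score of 2.06, factors of this size could not have reversed that order, so it is no check of the rise.

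As a group the 150 genes stood low at 0 h and higher from 24 h on, an order that the score requires. The cap bounds how far the later values of a gene can differ, so similar later levels are no sign of a plateau. A fall from 1 week to 4 weeks is described below. The median of the 150 genes was 3.33 CPM in the ultrasonicated and 4.19 CPM in the control library at 0 h. In the ultrasonicated arm the later medians were 16.2, 18.3, 21.7 and 17.1 CPM from 24 h to 4 weeks, and in the control arm 15.7, 20.2, 20 and 16.3 CPM. Summed over the 150 genes, the counts were 0.0868% of gene counts in the ultrasonicated and 0.114% in the control library at 0 h. From 24 h to 4 weeks the sum was 0.464%, 0.492%, 0.557% and 0.419% in the ultrasonicated arm and 0.488%, 0.543%, 0.535% and 0.382% in the control arm, highest at 1 week in ultrasonicated and at 48 h in control explants. The mean later level was 4.78 times the mean 0 h level for the median gene, and 2.72 to 15 times over the list, values that the choice of the genes fixes in large part. With 0.5 CPM added, the median log2 ratio was 2.07 for the list and 0.52 for the 11793 gene models that met the floor and the cap. These ratios are without TMM scaling. The lowest count behind any of these values was 28 at 0 h and 291 at the later times, so that counting error is small beside the differences described. In pooled tissue, more cells of a kind and more RNA per cell cannot be told apart.

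**Figure D1:**
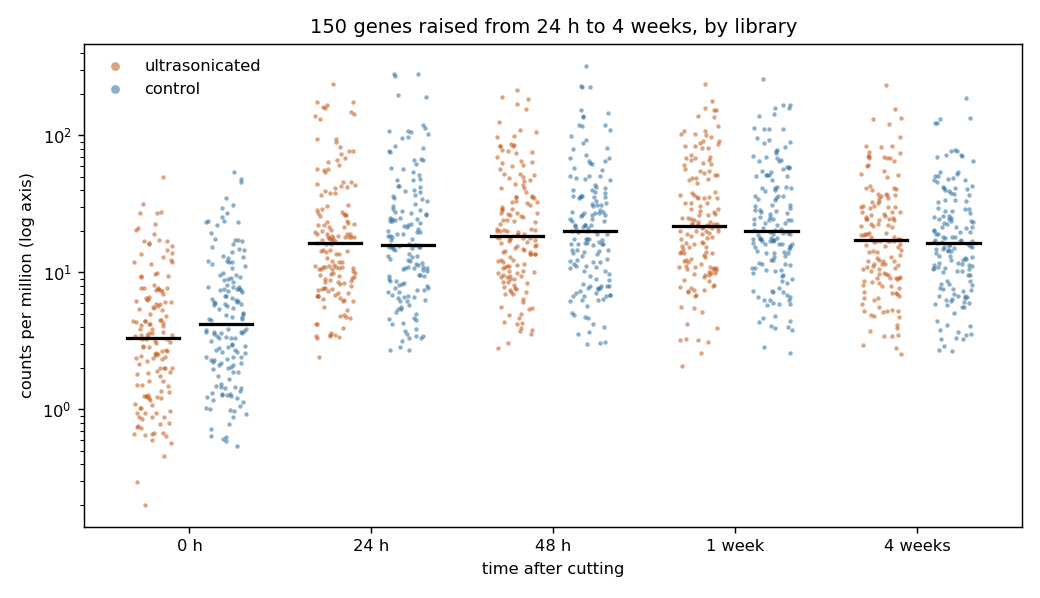
CPM (log axis) of each of the 150 genes in the 10 libraries, with the ultrasonicated library left of the control library at each time and a black bar at the median. Medians of 3.33 and 4.19 CPM at 0 h stand below the later medians, which lie between 15.7 and 21.7 CPM.

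The gene with the highest score, 6.21, was PGSC0003DMG400024344 (chromosome 9, 31520020 to 31521721, plus strand, on the build of the table, which is not named). From 0 h to 4 weeks, ultrasonicated explants had 4.33, 66, 84.4, 90.4 and 70.2 CPM of it, and control explants 5.64, 57, 116, 76.9 and 37.6 CPM. Every later library of both arms was thus far above both 0 h libraries, and at 4 weeks the control library was the lowest of them. PGSC0003DMG400004573 (chromosome 12, 59388655 to 59391021) followed with a score of 5.71. Its level in ultrasonicated explants was 3.25 CPM at 0 h and between 43.7 and 60.3 CPM later, and in control explants 3.73 CPM at 0 h and between 23.6 and 65 CPM later.

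Scores thinned out quickly below these. Only 9 genes had a score over 4 and 23 a score over 3, with a median of 2.39 and quartiles at 2.22 and 2.73. The last gene taken, PGSC0003DMG400004340 (chromosome 3, 45737802 to 45743916), had a score of 2.06, with 0.847 CPM (ultrasonicated) and 1.45 CPM (control) at 0 h and 3.51 to 9.67 CPM later. The first gene left out, PGSC0003DMG400031419 (chromosome 8, 33973044 to 33974911), also had 2.06, with 0.854 and 0.589 CPM at 0 h and 2.29 to 6.26 CPM later. The line between them is a matter of the number taken and marks no gap in the scores.

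Counts per gene covered a wide range and were not divided by transcript length, so they do not order the genes by transcript number. The mean of the 8 later libraries was 100 CPM or more for 10 genes, which together held 29.3% of the summed later CPM, and under 10 CPM for 35. Most heavily counted was PGSC0003DMG400001380 (chromosome 2, 45310909 to 45312728). Over the 5 times it had 13.9, 237, 213, 159 and 97 CPM in ultrasonicated explants and 31, 270, 321, 159 and 132 CPM in control explants. It was highest on the first 2 days in both arms and lower, though still above 0 h, at 4 weeks. At the other end PGSC0003DMG400009341 (chromosome 4, 65033810 to 65039205) stayed between 2.59 and 3.76 CPM in the 8 later libraries, against 0.876 CPM (ultrasonicated) and 0.777 CPM (control) at 0 h.

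Some genes were close to level once up. PGSC0003DMG400007053 (chromosome 7, 52156353 to 52162402) had 7.72 CPM at 0 h in ultrasonicated explants and 26.4, 27, 30.7 and 26 CPM at the 4 later times. In control explants it had 9.62 CPM at 0 h and then 24.8, 31.5, 31 and 25.4 CPM. Its highest later value was 1.27 times its lowest, the smallest such ratio in the list. For the median gene of the list this ratio was 2.45, and for the 11793 gene models that met the same floor and cap it was 2.2, so the list as a whole was no more level after 24 h than those gene models.

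The time at which a gene was highest after 0 h was most often 1 week. In ultrasonicated explants 67 of the 150 genes (44.7%) had their highest later value at 1 week, and in control explants 57 (38%) did. Among the 11793 gene models under the same floor and cap, which include the list, the shares were 21.1% and 21.7%. In control explants 48 h came close, with 56 genes (37.3%, against 22.6% of the gene models). The lowest later value fell most often at 4 weeks, in 58 genes (38.7%) in ultrasonicated and 74 (49.3%) in control explants, followed by 24 h, in 51 (34%) and 55 (36.7%). Among those gene models 28% and 29.2% were lowest at 4 weeks and 23.1% and 29.1% at 24 h. Both arms were highest at the same time in 79 genes (52.7%), close to the 54.1% of the gene models. These shares describe 1 library per point and carry no test, and the gene models, unlike the list, were not chosen to be low at 0 h.

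Whether levels differed between the later times was tested with edgeR's quasi-likelihood F-test over the 8 later libraries, with time and arm in the model, so that both arms stand in for replicates. P-values were adjusted by Benjamini-Hochberg over the 24607 features tested, and a gene was called at an adjusted p under 0.05. These tests use no 0 h library, but the choice of genes used the same 8 libraries through the floor, the cap and the lowest later value. The choice also asked for low values at 0 h, which neither background had to meet. The cap limits how large a later change can be. Each p-value rests on how far pooled libraries scatter, not single plants. All 150 genes were tested, since the floor of 2 CPM brings each of them past the filter on low counts.

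From 24 h to 48 h the median of the list was slightly above 0, and no single gene passed. The median log2 change of the 150 genes (48 h over 24 h) was 0.12, with 92 genes above 0, against 0.04 over all features and -0.11 over the gene models under the same floor and cap. edgeR called 0 of the 150 genes, and 0% of all features, at this step. At an unadjusted p under 0.05 there were 20 genes (13.3%, against 17.5% of all features). DESeq2 called 6, 5 higher and 1 lower (4%, against 8.47% of all features), and limma-voom called 0, as over all features. With total counts as the scaling the medians were 0.24 for the list and 0.17 over all features. The smallest p of a higher gene was that of PGSC0003DMG401015433 (chromosome 12, 56465450 to 56468316), at 30 CPM (ultrasonicated) and 25.9 CPM (control) at 48 h, against 12.7 and 11.7 CPM at 24 h. Its log2 difference of 1.09 (SE 0.244, edgeR adjusted p = 0.167) did not pass. The tissue label changes between these times, and time and tissue cannot be told apart in any comparison of 24 h with a later time.

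From 48 h to 1 week the median was again above 0, and again no gene passed. The median log2 change (1 week over 48 h) was 0.20 for the 150 genes, 95 of them above 0, against -0.02 over all features and 0.03 over the gene models under the same floor and cap. edgeR called 0 genes of the list. It called 2.99% of all features (0.91% higher, 2.08% lower) and 0.687% of those gene models (0.365% higher, 0.322% lower). At an unadjusted p under 0.05 there were 20 of the list (13.3%, against 20.3% of all features). DESeq2 called 6 of the list, all higher (4%, against 14.1%), and limma-voom 0 (against 4.99%). PGSC0003DMG400013938 (chromosome 11, 13239794 to 13240526) had 51 CPM (ultrasonicated) and 65 CPM (control) at 1 week, against 19.9 and 35.5 CPM at 48 h. Its log2 difference was 1.17 (SE 0.291, edgeR adjusted p = 0.0837). Both 1 week libraries lay above both 48 h libraries, without passing the test.

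At 4 weeks most of the 150 genes were lower than at 1 week, and 11 passed the test. The median log2 change (4 weeks over 1 week) was -0.54, and 124 of the 150 values lay below 0, while the median was 0.03 over all features and -0.03 over the gene models under the same floor and cap. edgeR called 11 genes lower and 0 higher. Among all features 7.16% were called, 4.68% lower and 2.48% higher, and among the gene models under the floor and cap 4.65%, 3.23% lower and 1.42% higher. The 11 genes are 7.33% of the list, too few to be read as a difference from either background. Both arms showed lower levels at 4 weeks, with a median log2 change of -0.56 in ultrasonicated and -0.39 in control explants. In both arms at once 108 genes (72%) were lower at 4 weeks than at 1 week, against 34.6% of all features and 37.5% of the gene models under the same floor and cap. Libraries at these times carry the same tissue label. The list was chosen to be low at 0 h, in segments cut from plantlets 4 weeks old, whereas neither background was. The part of that choice in the fall to 4 weeks was not tested.

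PGSC0003DMG400007562 (chromosome 3, 41191469 to 41194165) had the smallest p of the genes that fell. Ultrasonicated explants had 5.56, 18.2, 41.2, 54.9 and 24.2 CPM over the 5 times, and control explants 7.43, 18.4, 35, 41.4 and 17.3 CPM. Both arms were highest at 1 week and near their 24 h level at 4 weeks. Its log2 change from 1 week to 4 weeks was -1.32 (SE 0.225, edgeR adjusted p = 0.0284), lower in both arms.

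PGSC0003DMG400017558 (chromosome 6, 43295649 to 43297498) took the same course. It had 32.5 CPM (ultrasonicated) and 23.9 CPM (control) at 4 weeks, against 66.5 and 54.1 CPM at 1 week. The log2 change was -1.20 (SE 0.207, edgeR adjusted p = 0.0289). In the other direction PGSC0003DMG400015494 (chromosome 2, 20786537 to 20787573) had the smallest p, with 9.57 and 6.08 CPM at 4 weeks against 2.59 and 2.87 CPM at 1 week. Its log2 difference of 1.39 (SE 0.375, edgeR adjusted p = 0.0699) did not pass. The 11 calls depended on having all libraries, and the calls over all features also fell with any library left out. Without any single one of the 8 libraries 0 to 4 genes were called, while the median log2 change stayed between -0.58 and -0.42. Scaling by total counts gave 7 calls, all lower, and a median of -0.43, with the median of all features at 0.13. With it 1022 of 24607 features and 319 of 11793 gene models under the floor and cap were called lower. The share of the list in that direction was then close to that of all features.

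**Figure D2:**
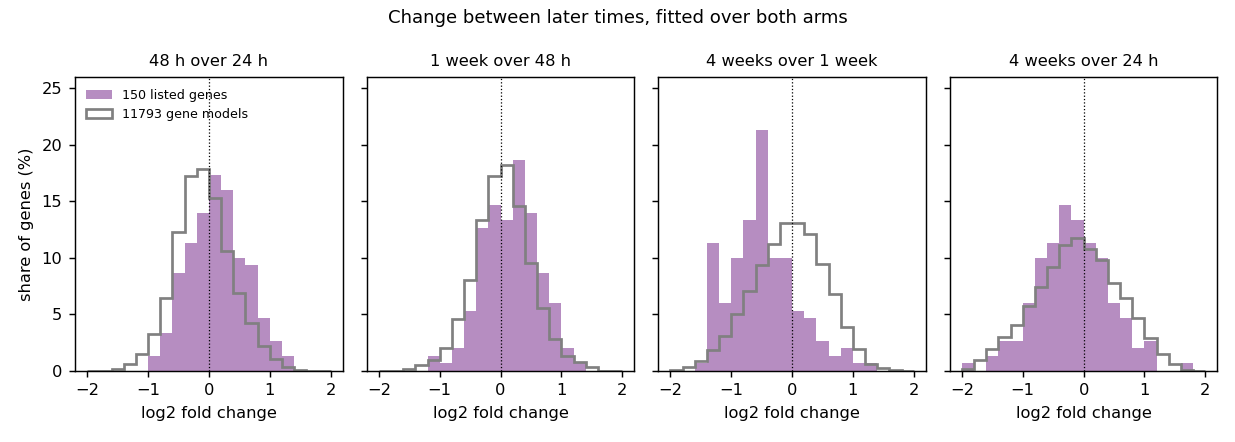
Share of genes (%) by log2 fold change between later times, for the 150 genes (filled) and for the 11793 gene models under the same floor and cap (grey line), from the fit over both arms. In the panel of 4 weeks over 1 week the 150 genes lie to the left, with a median of -0.54 against -0.03.

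Set against 24 h, levels at 4 weeks were lower for more of the genes than they were higher. The median log2 change (4 weeks over 24 h) was -0.18, with 94 genes below 0, and over the gene models under the same floor and cap it was -0.09. edgeR called 12 genes, 2 higher and 10 lower. Among all features 19.7% were called at this contrast, 8.33% higher and 11.4% lower, and among the gene models under the floor and cap 17%, with 5.21% higher and 11.8% lower. The share in the list, 12 of 150, is below both backgrounds, for genes chosen in part by their lowest value over these same libraries. Scaling by total counts alone turned the balance over all features to 2653 higher and 2228 lower, against 2049 and 2804 with TMM, and moved their median from 0.05 to 0.23. With it the list had a median of -0.01 and 10 calls, 2 higher and 8 lower. Of the 12 genes, 3 were also among the 11 that fell from 1 week to 4 weeks, in comparisons that share the 4 week libraries.

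PGSC0003DMG400003083 (chromosome 2, 30400819 to 30406082) peaked at 24 h. Its 5 values in ultrasonicated explants were 21.1, 138, 83.7, 107 and 52.5 CPM, and in control explants 22.2, 197, 139, 82.4 and 52.3 CPM. It fell from 24 h to 4 weeks by 1.82 on the log2 scale (SE 0.327, edgeR adjusted p = 0.0139). PGSC0003DMG400002989 (chromosome 11, 43254527 to 43258781) had 18.1 CPM (ultrasonicated) and 18 CPM (control) at 4 weeks, against 42.4 and 42.9 CPM at 24 h. It fell by 1.39 on the log2 scale (SE 0.251), with an edgeR adjusted p of 0.0139. Both genes were still above their 0 h level at 4 weeks in both arms.

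The 2 genes that rose from 24 h to 4 weeks had their lowest later values at 24 h in both arms. PGSC0003DMG400012248 (chromosome 8, 56511149 to 56516992) had 1.51, 6.28, 15.7, 13.9 and 21.9 CPM in ultrasonicated explants over the 5 times, and 2.11, 6.8, 11.1, 20.3 and 22.8 CPM in control explants. Its log2 change from 24 h was 1.62 (SE 0.309, edgeR adjusted p = 0.0165), higher in both arms. PGSC0003DMG400012551 (chromosome 1, 82022170 to 82026459) had 16.2 CPM (ultrasonicated) and 24.4 CPM (control) at 4 weeks, against 6.8 and 11 CPM at 24 h. Its log2 change was 1.04 (SE 0.246, edgeR adjusted p = 0.0294), and with the 0 h libraries added to the fit the adjusted p was 0.107, the highest of a range from 0.000432 over 8 other settings. In fits without 1 library it was called in 2 of 8, and PGSC0003DMG400012248 in 4 of 8, with the log2 change of the 2 genes staying between 0.99 and 1.68.

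**Figure D3:**
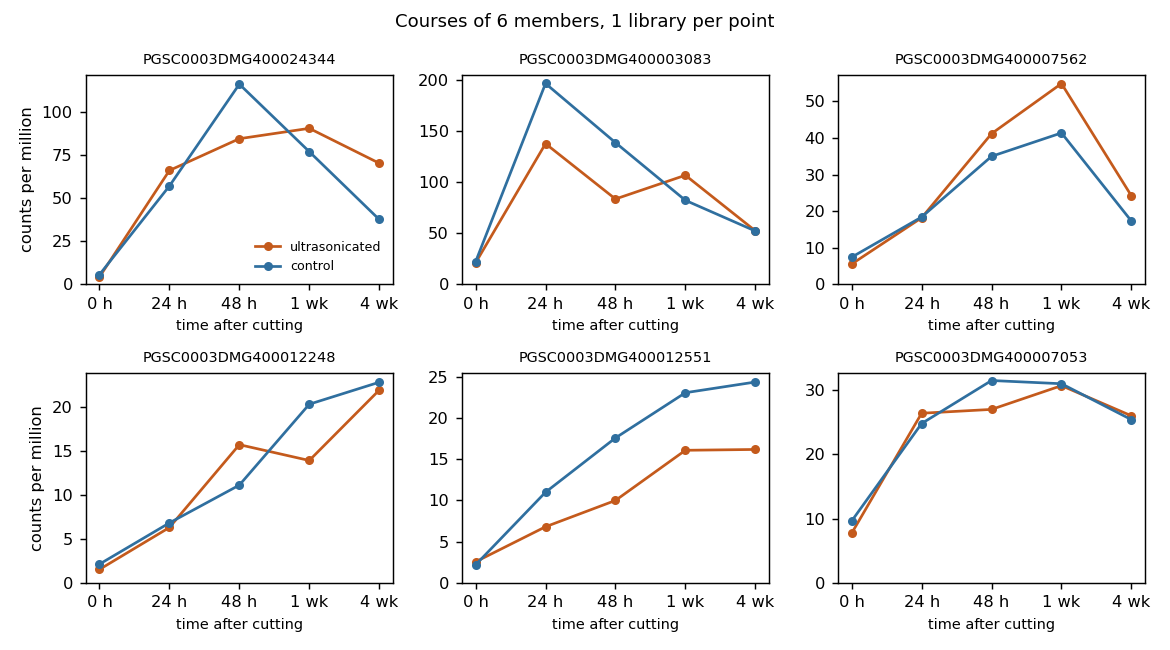
CPM by time after cutting for 6 of the genes, 1 library per point, ultrasonicated and control arm. PGSC0003DMG400003083 is highest at 24 h, PGSC0003DMG400007562 at 1 week and PGSC0003DMG400012248 at 4 weeks, while the later values of PGSC0003DMG400007053 stay within 1.27 times of each other.

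The 12 calls between 24 h and 4 weeks also rested on single libraries, and the calls over all features likewise fell with any library left out. Leaving out the ultrasonicated library at 24 h or at 4 weeks left 0, the control library at 24 h 1, the control library at 4 weeks 4, and either library at 48 h 7, while leaving out either library at 1 week left 12. The F-test over the 4 later times together called 17 genes of the list (11.3%), against 19.6% of all features and 13.8% of the gene models under the floor and cap. Over these 5 time tests 24 of the 150 genes (16%) were called at least once, against 26.2% of all features and 21.8% of the gene models under the floor and cap. The other 126 were not called, and a p that misses the threshold does not show that a gene was level.

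The next question was whether ultrasound moved these genes after 0 h. The choice did not compare the arms, although the floor, the cap and the lowest later value bound how far they can differ. The test takes the 4 later times as blocks of 1 library per arm. edgeR called 0 of the 150 genes, and 0% of all features. At an unadjusted p under 0.05 there were 6 genes (4%, against 4.91% of all features), limma-voom called 0 and DESeq2 called 1, lower, of 190 over all features. The median log2 difference (ultrasonicated over control) was 0.08 for the list, 0.04 over all features and 0.07 over the gene models under the floor and cap. Ultrasonicated explants were above control at all 4 later times in 10 genes (6.67%, against 7.73% of all features and 9.73% of the gene models under the floor and cap). They were below at all 4 in 7 genes (4.67%, against 5.99% and 3.95%).

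The gene that DESeq2 called was PGSC0003DMG400012551, described above. It had 6.8, 10, 16.1 and 16.2 CPM from 24 h to 4 weeks in ultrasonicated explants, against 11, 17.6, 23.1 and 24.4 CPM in control explants. Ultrasonicated explants were lower at each of the 4 later times, whereas at 0 h they had 2.54 CPM against 2.17 CPM in control explants. The log2 difference was -0.62 (SE 0.173, edgeR adjusted p = 0.903), and by DESeq2 the adjusted p was 0.0378. Under the other settings, tools and left-out libraries it was 0.476 to 1. Among genes higher after ultrasound, PGSC0003DMG400017558 had the smallest p. It was higher in ultrasonicated explants at all 4 times, with 22.9, 46.3, 66.5 and 32.5 CPM against 19.7, 30.9, 54.1 and 23.9 CPM in control explants, and its log2 difference of 0.41 (SE 0.145, edgeR adjusted p = 0.903) did not pass.

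With 1 library per arm, a single time allows no test. Ratios of TMM-scaled counts therefore come with 95% Clopper-Pearson bounds (exact binomial), which cover counting error only, and a gene counts as apart if both bounds are past 2-fold. At 0 h 1 of the 150 genes was higher and 5 were lower in ultrasonicated explants, against 11.6% and 11.2% of all features (22.8% together) and 5.72% and 5% of the gene models under the floor and cap (10.7% together). With total counts as the scaling, 0 were higher and 13 lower (8.67% together, against 26.2% of all features), and the median log2 ratio of the list was -0.30 in place of 0.06, while that of all features was -0.36 in place of 0.01. Because the choice used the higher of both 0 h values, a gene high in either arm at 0 h was unlikely to be taken.

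PGSC0003DMG400000412 (chromosome 11, 39104000 to 39105987) was the gene higher after ultrasound at 0 h, with 4.18 CPM in ultrasonicated and 1.86 CPM in control explants, a ratio of 2.88 (interval 2.48 to 3.37). It had 12.1 CPM in ultrasonicated and 19.1 CPM in control explants at 24 h, so the order of the arms turned within the first day. PGSC0003DMG401018597 (chromosome 5, 10542282 to 10545829) had 28 counts in the ultrasonicated and 163 in the control library at 0 h, 0.201 against 1.28 CPM, a ratio of 0.202 (0.13 to 0.303). At 24 h its arms stood at 6.71 CPM (ultrasonicated) and 6.66 CPM (control), without a visible difference. PGSC0003DMG401015433 had 0.761 CPM in ultrasonicated and 4.75 CPM in control explants at 0 h, a ratio of 0.206 (0.166 to 0.253), and 12.7 against 11.7 CPM at 24 h. It overlaps another gene model on the same strand, so its reads may be shared.

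After 0 h, 2 to 5 genes of the list (1.33% to 3.33%) stood apart between the arms at any 1 time, below the share of all features. That was above the share of the gene models under the floor and cap, but on too few genes to be read as a difference. At 24 h 1 gene was higher and 3 were lower in ultrasonicated explants, 2.67% of the list, against 5.2% and 7.15% of all features (12.4% together) and 0.577% and 0.466% of the gene models under the floor and cap (1.04% together). At 48 h 0 were higher and 4 lower (2.67%), against 2.64% and 5.04% of all features (7.68%) and 0.339% and 0.534% of those gene models (0.873%). At 1 week 3 were higher and 2 lower (3.33%), against 6.74% and 10.4% of all features (17.1%) and 1.06% and 1.73% of those gene models (2.79%). The floor and the cap limit such ratios in the list and in those gene models alike, so the gene models are the closer background. At 4 weeks 2 were higher and 0 lower (1.33%), against 5.95% and 6.38% of all features (12.3%) and 0.509% and 0.416% of those gene models (0.924%). Over the 5 times, 0 h included, 130 of the 150 genes were beyond 2-fold at none, 19 at 1 time and 1 at 2 times, and none was beyond it in opposite directions at different times. The 20 beyond it at least once are 13.3% of the list, against 43.7% of all features and 14.9% of the gene models under the floor and cap. Ribosomal RNA was highest in the control library at 24 h, and its part in the values at that time was not tested.

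The gene apart at 2 times was PGSC0003DMG400001624 (chromosome 1, 87245524 to 87246294). In ultrasonicated explants it had 1.25, 4.19, 7.73, 3.12 and 4.81 CPM from 0 h to 4 weeks, and in control explants 1.22, 10.7, 12.3, 12.4 and 4.11 CPM. Its ratio was 0.383 at 24 h (0.346 to 0.424) and 0.269 at 1 week (0.241 to 0.299), while the arms were close at 0 h and 4 weeks. At 4 weeks the gene furthest above control was PGSC0003DMG400004573, which ranked second by score, with 60.3 CPM in ultrasonicated and 23.6 CPM in control explants, a ratio of 2.46 (2.36 to 2.56). PGSC0003DMG400004882 (chromosome 6, 48716845 to 48720067) changed sides, with 43.3 CPM in ultrasonicated and 22.4 CPM in control explants at 24 h (ratio 1.89, 1.81 to 1.98) and 15 against 36.3 CPM at 48 h (0.43, 0.408 to 0.452).

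**Figure D4:**
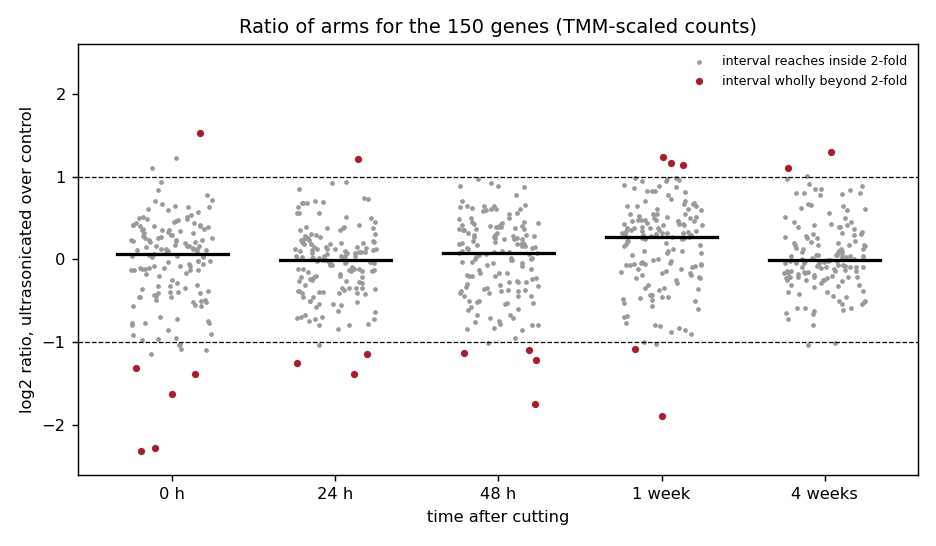
Log2 ratio of ultrasonicated over control TMM-scaled counts for each of the 150 genes at the 5 times, with a black bar at the median and dashed lines at 2-fold. Red points are the genes whose exact interval lies wholly beyond 2-fold, 6, 4, 4, 5 and 2 of them in the order of the times.

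Beyond setting aside the gene models with a symbol, the rule used no annotation. The genes lay on all 12 chromosomes, with 1 more on the unanchored sequence that the table numbers as chromosome 0. From start to end they were shorter than the 11793 gene models under the same floor and cap, with a median of 3227 bp against 4597 bp, and 15 of them (10%) were under 1000 bp against 4.63%. These spans are not transcript lengths, which enter a count directly, and the part of length in the choice of these genes was not tested. Of the 150 genes, 80 (53.3%) were on the plus strand, against 50.2%.

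A few of the 150 are not separate measurements. Of the 150 genes, 19 (12.7%) overlapped another feature of the table, 16 of them on the opposite strand, close to the 13.4% and 10.9% of the gene models under the floor and cap. Among them were 4 pairs in which both partners belong to the list, and no other members were neighbours on a chromosome. PGSC0003DMG400022746 (minus strand, chromosome 8, 53728302 to 53732590) and PGSC0003DMG400022730 (plus strand, 53728314 to 53732460) cover nearly the same bases. Their counts stood in a ratio of 1 to 1.01 in all 10 libraries, with for example 175 CPM each in ultrasonicated explants at 24 h, and scores of 3.22 and 3.23. The table thus holds 1 signal for this pair, and which strand gave the reads cannot be told apart. The strand setting of the counting is not given, so reads of the other genes with an opposite-strand overlap may be shared too.

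The other 3 pairs share part of their length. PGSC0003DMG400027641 and PGSC0003DMG400027630 (chromosome 7, overlapping over 2045 bp) had a count ratio between 0.751 and 1.12, and PGSC0003DMG402000895 and PGSC0003DMG401000895 (chromosome 11, 1293 bp) one between 1.18 and 2.13. PGSC0003DMG400016733 and PGSC0003DMG400016722 (chromosome 2, 1309 bp) had ratios from 1.44 to 3.72. The value of 3.72 came from the ultrasonicated library at 0 h, where the second gene had 4.17 CPM against 7.23 CPM in control explants. With the 19 overlapping genes left out, a choice made after seeing the data, 10 of the 11 genes that fell from 1 week to 4 weeks and 12 of the 12 called between 24 h and 4 weeks stayed.

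**Figure D5:**
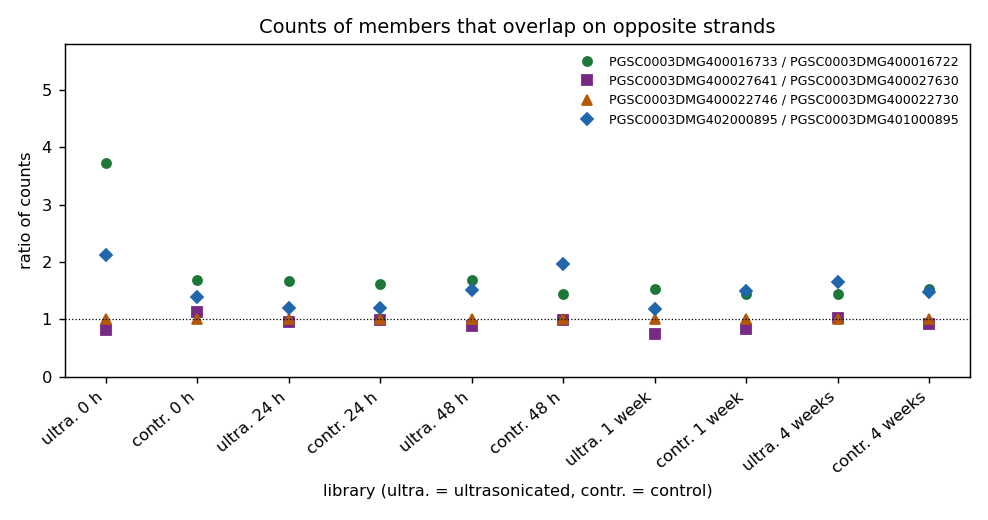
Ratio of counts between both partners of the 4 pairs of listed genes that overlap on opposite strands, in each of the 10 libraries, ultrasonicated left of control at each time. The pair on chromosome 8 lies at 1 to 1.01 throughout, and the pair on chromosome 2 reaches 3.72 in the ultrasonicated library at 0 h.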

How the data were processed

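The deposited table holds whole-number read counts per gene feature, not normalized by the authors, for 10 libraries of pooled RNA from a stranded mRNA kit, per the labels' protocols. The submitters' processing notes name HISAT2 2.1.0, Trim Galore 0.5.0 and FastQC 0.11.5. For the build, the annotation, the counting tool and its strand setting, the labels and the file give nothing. The genes and lists were chosen with earlier results of these data known. Tests used edgeR 4.0.16 (quasi-likelihood, TMM, filterByExpr by arm, Benjamini-Hochberg), which kept 24607 of 40430 features. Time entered as the block that pairs the arms, which leaves 3 residual degrees of freedom. Scripts were tested on simulated data. Alternatives were median-ratio size factors, total counts, no filter, a stricter filter, DESeq2 1.42.0, limma-voom 3.58.1, the 0 h libraries added, gene models only, arm alone and each library left out. Named genes were the 2 called with the smallest p in each direction of each pairwise time contrast. Where none was called, the gene with the smallest p was named, and for ultrasound the 2 with the smallest p. Others were the 2 most and 2 least counted, the 2 most level, those at the ends of the ranking and neighbouring members. At each time the 2 furthest above and below an even ratio were named too. Those printed are a selection from these.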

Additional observations from a re-analysis of the deposited data

How the results depend on the processing

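Counts of called genes differed between tools. DESeq2 called 31 genes between 24 h and 4 weeks (20.7%, against 33.3% of all features; 12 by edgeR), 39 between 1 week and 4 weeks (26%, against 22.6%; 11 by edgeR), 61 over the 4 later times (40.7%, against 44%; 17 by edgeR), 6 at each of the steps from 24 h to 48 h and from 48 h to 1 week (0 each), and 1 for ultrasound (0). Between 1 week and 4 weeks limma-voom called 17 (11.3%, against 10.5%), and total counts gave 7, against 1733 of 24607 features. Adding the 0 h libraries gave 4 between these times, against 869 of 24421 features. Over the 4 later times it left 7, against 2989 of 24421 features. The cause was not tested. Leaving out each of the 8 libraries in turn gave 0 to 12 genes between 24 h and 4 weeks, 0 to 4 between 1 week and 4 weeks and 0 to 9 over the 4 later times, with fewer libraries in each fit. Time was the block that pairs the arms, and without that replicate block ultrasound again gave 0 genes. Lowering the fold from 2 to 1.5 gave 21, 23, 26, 36 and 20 genes apart between the arms at the 5 times in order, or 14%, 15.3%, 17.3%, 24% and 13.3%. Over all features the shares were 38.5%, 23.7%, 20.2%, 33% and 23.6%, and over the gene models under the floor and cap 27.4%, 7.96%, 8.57%, 17% and 7.17%. At 2-fold, total counts gave 13 at 0 h. Of the results for single named genes under other settings, 118 kept their direction and side of the threshold, 1 lost its call, 5 gained one and 0 reversed. With a library left out, 91 kept both, 29 lost their call and 0 reversed. A result without a call has none to lose, so the 91 do not show that the calls were stable. No called result kept its call in every such fit. Pooled libraries, 1 per arm and time, limit every comparison: the spread between plants was not measured, and counting error was small.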

Other observations

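On several chromosomes the share of the list was close to that of the gene models under the same floor and cap. It was 10.7% against 10.2% on chromosome 2 and 6.67% against 6.54% on chromosome 5. The chromosomes named next are those where both shares lay furthest apart. Chromosome 12 held 15 of the 150 genes (10%, against 6.33% of the 11793 gene models under the same floor and cap), and chromosome 4 held 7 (4.67%, against 8.45%), or 2.01 and 0.702 listed genes per 100 such gene models. Chromosome 9 also held 15 (10%, against 7.23%), and chromosome 1 held 14 (9.33%, against 12.9%). These are counts without a test, and they do not show that the list was spread unevenly.

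Genes next to the listed ones were only slightly higher after 0 h than genes next to other gene models. The 181 adjacent gene models outside the list that reached 2 CPM had a median log2 ratio of mean later over mean 0 h level of 0.59, and 51 of them (28.2%) were over 1. For 10099 neighbours of the other gene models under the floor and cap the median was 0.54 and the share over 1 was 26%. Over all gene models under the floor and cap the median was 0.52. None of these levels was TMM-scaled, so the medians are no measure of a rise after 0 h.

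The arms shared a peak at 1 week in 40 of the listed genes (26.7%), against 9.59% of the gene models under the floor and cap, and at 24 h in 7 (4.67%), against 14%.

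The choice of 0 h library decides much of the ranking. Scored against the control 0 h library alone, 101 of the 150 genes (67.3%) would be among the highest 150, and against the ultrasonicated 0 h library alone 50 (33.3%).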
